A study of Mus musculus with 8 samples.

Results

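The comparison described here sets the 2 arrays labelled IRAK4 KI with acetylated low-density lipoprotein (acLDL) against the 2 arrays labelled wild type with acLDL, out of 8 arrays in the series. Probes were kept when they lay above noise on at least 2 of these 4 arrays, 11327 of 24613. With 1 probe per named gene and unnamed probes standing alone, they gave 9792 items, of which 8450 have a gene symbol, and 8800 of the items were above noise on all 4 arrays. The labels describe bone marrow cells of female mice of strain 129/BL6, grown for 5 days in medium conditioned by L929 cells. The IRAK4 KI mice carry a knock-in that leaves the kinase IRAK4 without activity, and the wild type mice do not. Both acLDL groups received 100 ug/ml acLDL for 24 hours, and the 2 IRAK4 KI and 2 wild type arrays without acLDL are called untreated. The study asked how the loss of IRAK4 kinase activity changes gene expression under acLDL. Whether the 2 samples of a group are separate cultures or animals is not stated, so each p-value reflects the spread between samples alone, and that spread may be technical.

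IRAK4 is a serine/threonine kinase that binds the adaptor MyD88 below Toll-like and interleukin-1 receptors and passes the signal on to NF-kB and MAP kinases, which switch on inflammatory genes. In plasmacytoid dendritic cells the same adaptor also leads to interferon genes. Acetylated LDL is a modified lipoprotein that macrophages take up through scavenger receptors and store as cholesteryl ester, as in the foam cells of atherosclerotic plaques.

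The promoters of 3 of the genes that differed are shown because the interferon-stimulated and the circadian clock lists, to which these genes belong, are described below. Each stretch runs from 250 bases before to 50 bases after a RefSeq gene start in mouse build GRCm38.p6. Capitals mark the motif found in it. For the interferon-stimulated genes Rsad2 (chr12:26456403-26456702, minus strand) and Ifi47 (chr11:49076337-49076636, plus strand) the motif was an interferon response element, read as GAAA, any 2 bases and GAAA. For the clock gene Cry2 (chr2:92434020-92434319, minus strand) the motifs were the E-box CACGTG and its variant CACGTT. Both strands were searched, and the capitals below show matches on the strand opposite to the one printed.
Rsad2: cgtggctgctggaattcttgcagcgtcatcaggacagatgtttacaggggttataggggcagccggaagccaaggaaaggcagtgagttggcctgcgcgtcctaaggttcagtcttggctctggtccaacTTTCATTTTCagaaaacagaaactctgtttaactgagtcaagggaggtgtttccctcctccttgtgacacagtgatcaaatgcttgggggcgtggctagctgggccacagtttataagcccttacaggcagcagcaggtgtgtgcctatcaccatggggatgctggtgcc
Ifi47: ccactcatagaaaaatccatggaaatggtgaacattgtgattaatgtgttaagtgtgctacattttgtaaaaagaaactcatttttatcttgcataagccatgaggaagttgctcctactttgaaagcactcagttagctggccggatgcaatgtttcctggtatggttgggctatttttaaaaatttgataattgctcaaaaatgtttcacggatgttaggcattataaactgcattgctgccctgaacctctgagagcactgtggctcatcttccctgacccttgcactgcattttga
Cry2: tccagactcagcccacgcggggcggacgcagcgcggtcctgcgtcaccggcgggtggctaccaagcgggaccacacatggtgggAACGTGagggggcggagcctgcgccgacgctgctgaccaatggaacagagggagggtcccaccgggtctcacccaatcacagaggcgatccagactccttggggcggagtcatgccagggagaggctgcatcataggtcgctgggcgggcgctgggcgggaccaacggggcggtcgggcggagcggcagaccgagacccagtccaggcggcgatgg
Rsad2 holds 1 interferon response element, which starts 120 bases before the gene start, and Ifi47 holds none in this window. The 23 interferon list genes in the table have 30 promoters, of which 10 (33.3%) hold the element, against 3.01% of the 8775 promoters of tested genes and 3.44% of all 32851 promoters of the same length. Cry2 holds 1 CACGTT, starting 166 bases before the gene start, and no CACGTG. The variant CACGTT lies in 2 of the 22 promoters of clock list genes (9.09%), those of Cry2 and Nr1d1, against 4.84% of the promoters of tested genes and 4.68% of all promoters. CACGTG lies in 3 of the 22 (13.6%), of Per1 and Tef, against 9.69% of the promoters of tested genes and 7.15% of all promoters. A match of letters is a description and does not show that a factor binds there.

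Before the results, the levels on the arrays were set against the labels. Genes of lung cells were among the bright ones: over the 4 acLDL arrays Sftpc, a surfactant protein gene of alveolar type II cells, had a log2 intensity of 15.22 ± 0.10, Scgb1a1 of airway club cells 14.88 ± 0.03 and Ager of alveolar type I cells 14.53 ± 0.05 (SD, n = 4). Of 21 macrophage identity genes with a probe, 16 were above noise on all 4 arrays, while Itgam, Fcgr1 and Cd163 were above noise on none. Markers of other cell types were as widely above noise on all 4 arrays. They were 22 of 24 endothelial, 15 of 19 smooth muscle, stromal and mesothelial, 16 of 17 alveolar type II and 12 of 14 airway club markers with a probe. These levels go against a pure culture of macrophages, so the groups are named by the labels of their arrays throughout. In such bulk RNA, fewer cells of a type and less RNA per cell cannot be told apart. The Y-linked gene Eif2s3y was above noise on all 8 arrays, at 8.61 ± 0.19 (SD, n = 8), while the labels say female. Of the other Y-linked genes looked at, Kdm5d was above noise on 3 of the 8 arrays and Uty on 0. The sex of the mice is not settled by these values. Irak4 has no probe in the table used, so the genotype was not checked. The 2 KI acLDL arrays were closest to each other among the 4 acLDL arrays, and so were the 2 wild type ones. Among all 8, KI acLDL replicate 1 was closest to an untreated KI array (r = 0.991 across items), wild type acLDL replicate 1 to an untreated wild type array (0.986) and wild type acLDL replicate 2 to an untreated KI array (0.985). Wild type acLDL replicate 1 was low in heart muscle genes: the 15 cardiac markers tested averaged 9.72 and 9.08 on the KI acLDL arrays, against 7.96 and 9.95 on the wild type acLDL arrays. None of these 15 genes was called. Each array had 11026 to 11033 probes above noise, and the number of arrays limits the precision.

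Between IRAK4 KI and wild type with acLDL, 22 items were higher and 13 lower in KI (limma, Benjamini-Hochberg adjusted p under 0.05), 0.357% of the items tested, or 0.225% higher and 0.133% lower. Named genes made up 14 of the higher and 12 of the lower items. The higher genes included the calprotectin subunits S100a8 and S100a9, the interferon-stimulated genes Rsad2, Ifi47 and Parp12, the collagen gene Col3a1 and the heme synthesis gene Fech. The lower genes included the membrane adaptor Baiap2l1, the sphingomyelin synthase Sgms1, the proteasome subunit Psmb1 and the clock repressor Cry2. Of the 35 items, 6 higher ones lay below noise on both wild type arrays and have only a lower bound of their fold. These 6 passed the filter only through the KI arrays, where they are high. The other 29 all reached 1.5-fold and 14 of them 2-fold. The 2 KI arrays did not overlap the 2 wild type arrays for any of the 35. Such non-overlap was common: KI was above wild type on both arrays for 24.3% of all items and below for 31.1%. The difference was positive for 46.1% of all items. At an unadjusted limma p under 0.05, 975 items were higher and 1237 lower. The median size of the log2 difference was 1.07 among the 16 higher calls measured in both groups, 0.92 among the lower ones and 0.18 over all items. The threshold fell within a dense run of values. Ninl, just inside, had a difference of -0.71 (adjusted p = 0.0494), Cyb5a, just outside, one of 0.68 (adjusted p = 0.0505), and 41 items had an adjusted p between 0.05 and 0.06.

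**Figure D1:**
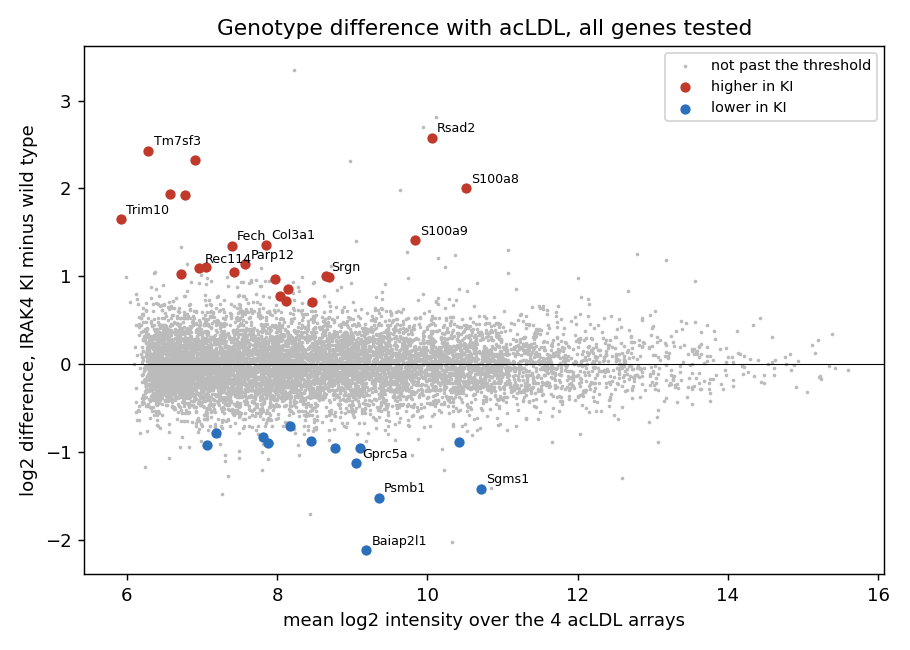
Log2 difference between IRAK4 KI and wild type arrays with acLDL (y axis) against the mean log2 intensity over the 4 arrays (x axis), 1 point per item of 9792. The 22 items higher in KI are red and the 13 lower are blue, and named ones of at least 2-fold carry their symbol. Several grey points lie as far from 0 as the coloured ones, because their 2 arrays of a group differed more.

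The count of 35 moved with single arrays, to 21 and 6 without KI acLDL replicates 1 and 2, 16 and 6 without wild type acLDL replicates 1 and 2, 12 when either untreated KI array was dropped and 14 when either untreated wild type one was, although these arrays enter only the estimate of the spread. It was also 7 without background correction, 10 without a filter on dim probes and 7 when only the 4 acLDL arrays were fitted. Baiap2l1, S100a8 and Col3a1 passed in 21 of 21 alternative settings and Tm7sf3 in 20 of 20. The calls of the other 22 named genes were each lost on leaving out at least 1 of the 8 arrays. Of the 35 calls, 14 and 5 held without KI acLDL replicates 1 and 2, 9 and 6 without wild type acLDL replicates 1 and 2, and 12 without any single untreated array.

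S100a8 and S100a9 encode the 2 subunits of calprotectin, a calcium-binding complex that neutrophils and monocytes hold in bulk and release in inflammation. S100a8 had log2 intensities of 11.39 and 11.63 on the KI arrays and 9.55 and 9.46 on the wild type arrays. It was 3.99-fold higher in KI (log2 difference 2.00, SE 0.12, limma adjusted p = 0.000578). S100a9 had 10.41 and 10.68 on the KI arrays and 9.10 and 9.17 on the wild type arrays, and it was 2.66-fold higher in KI (log2 difference 1.41, SE 0.15, limma adjusted p = 0.0115). Both KI arrays stood above, and both wild type arrays below, all 4 untreated arrays for both genes. The S100a9 call was lost on leaving out KI acLDL replicate 2 or either of the wild type acLDL arrays, and also without background correction and with only the 4 acLDL arrays fitted. Of 8 neutrophil and myeloid progenitor markers tested, 7 had a positive difference, these 2 were called, and the median was 0.65, against -0.03 over all items. The median was 0.38 without wild type acLDL replicate 2. Camp, the cathelicidin of neutrophil granules, had 7.89 and 7.86 in KI and 7.32 and 6.85 in wild type (difference 0.79, limma adjusted p = 0.104). For 5 of the 8 markers KI lay above wild type without overlap, against 24.3% of all items. Retnlg overlapped, at 9.56 and 8.46 in KI and 9.14 and 7.34 in wild type. So did Lcn2, at 10.10 and 10.72 in KI and 10.20 and 9.57 in wild type. Ltf, the only negative one (-0.22), had 9.52 and 8.80 in KI and 9.95 and 8.80 in wild type. Of 16 list genes with a probe, Mpo, Elane, Prtn3, Ctsg, Cxcr2, Mmp8 and Ngp were above noise on none of the 4 arrays. The summed level of the 8 markers on the log2 scale was 12.82 and 12.95 in KI and 12.14 and 11.61 in wild type, and its part in the S100a8 and S100a9 differences was not tested. Srgn, the proteoglycan core protein of secretory granules in blood cells, had 9.21 and 9.08 in KI and 7.93 and 8.36 in wild type. It was 2.00-fold higher in KI (SE 0.15 on the log2 scale, limma adjusted p = 0.0447), and its second probe differed by 0.41.

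Interferon-stimulated genes encode antiviral proteins and their regulators. Rsad2, whose product viperin blocks the replication of many viruses, had 11.28 and 11.41 in KI and 9.50 and 8.04 in wild type. Both KI arrays lay above the 6 other arrays, but the 2 wild type arrays differed by more than 1 log2 unit. Rsad2 was 5.96-fold higher in KI (log2 difference 2.58, SE 0.40, limma adjusted p = 0.0494), and the call held in 7 of 21 alternative settings. Ifi47, an interferon-induced GTPase, had 8.31 and 8.60 in KI and 7.45 and 7.52 in wild type (1.96-fold higher in KI, SE 0.12 on the log2 scale, limma adjusted p = 0.0291). The 4 untreated arrays, at 8.20 to 8.45, lay above the wild type acLDL arrays. Parp12, an interferon-induced ADP-ribosyltransferase that is outside the list used, had 8.11 and 8.17 in KI and 6.92 and 7.08 in wild type (2.20-fold higher in KI, SE 0.12 on the log2 scale, limma adjusted p = 0.0115). Here the KI acLDL arrays lay above and the wild type acLDL arrays below all 4 untreated arrays, which lay at 7.19 to 7.37. Of 24 interferon-stimulated genes tested, 19 had a positive difference, 2 were called higher and 0 lower, and the median was 0.31, against -0.03 over all items. It was 0.18 without KI acLDL replicate 2. For 14 of the 24, KI lay above wild type without overlap, against 24.3% of all items. Among the 14 was Ifit3, an interferon-induced protein of the IFIT family (8.12 and 8.12 in KI, 7.47 and 7.68 in wild type, limma adjusted p = 0.0965). Irf7, the master regulator of type I interferon genes, was another (6.83 and 7.03 in KI, 6.54 and 6.65 in wild type, limma adjusted p = 0.144). Bst2, the virion tether tetherin, overlapped, at 11.21 and 12.07 in KI and 11.64 and 11.67 in wild type. Untreated, the list's median was -0.04.

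No red cell lineage marker passed the threshold. Slc4a1, the anion exchanger band 3 of the red cell membrane, had 11.51 and 11.53 in KI and 9.63 and 7.79 in wild type (difference 2.81, adjusted p = 0.0586). Alas2, the erythroid enzyme that starts heme synthesis, had 13.37 and 13.44 in KI and 12.84 and 11.48 in wild type, and the globin gene Hbb-b2 13.64 and 13.88 in KI and 13.13 and 12.04 in wild type, neither past the threshold. Car2, a carbonic anhydrase, had 9.07 and 9.49 in KI and 8.35 and 8.46 in wild type (adjusted p = 0.0666). The other 2 of the 6 markers tested did not read higher in KI. Tfrc, the transferrin receptor, had 10.21 and 10.36 in KI and 10.58 and 10.42 in wild type (difference -0.21, limma adjusted p = 0.322). The globin gene Hba-a1 had 15.63 and 15.49 in KI and 15.63 and 15.63 in wild type. The level of 15.63 was shared by 7 of the 8 arrays, so Hba-a1 says little about a difference. Wild type replicate 2 was the lowest of the 4 acLDL arrays for Slc4a1, Alas2 and Hbb-b2, as for Rsad2, but not for Car2, Tfrc or Hba-a1. For 4 of the 6 markers KI lay above wild type without overlap, against 24.3% of all items. Over the 6 markers the median was 1.03, or 0.60 without wild type replicate 2. Their mean log2 intensity was 12.24 and 12.37 in KI and 11.69 and 10.97 in wild type. Their summed level, which Hba-a1 dominates, was 16.26 and 16.24 in KI and 16.09 and 15.87 in wild type on the log2 scale, while Gata1 and Klf1, transcription factors of red cell precursors, were above noise on none of the arrays. Of the called genes, Fech, which inserts iron into heme, had 7.96 and 8.18 in KI and 6.84 and 6.60 in wild type (2.56-fold higher in KI, SE 0.19 on the log2 scale, limma adjusted p = 0.0408), and its other probes differed by 0.73 and 1.11. Trim10, a tripartite motif protein needed for red cell differentiation, had 6.71 and 6.76 in KI and lay below noise in wild type. It was at least 1.32-fold higher in KI (limma adjusted p = 0.0115), counting the wild type arrays at no less than the lowest signal above noise. The second probe of Trim10 was above noise on 0 of the 8 arrays and differed by 0.34. For Fech and Rsad2 the untreated KI arrays also lay above the untreated wild type arrays. The part of red cell RNA in the Rsad2, Fech and Trim10 differences was not tested.

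**Figure D2:**
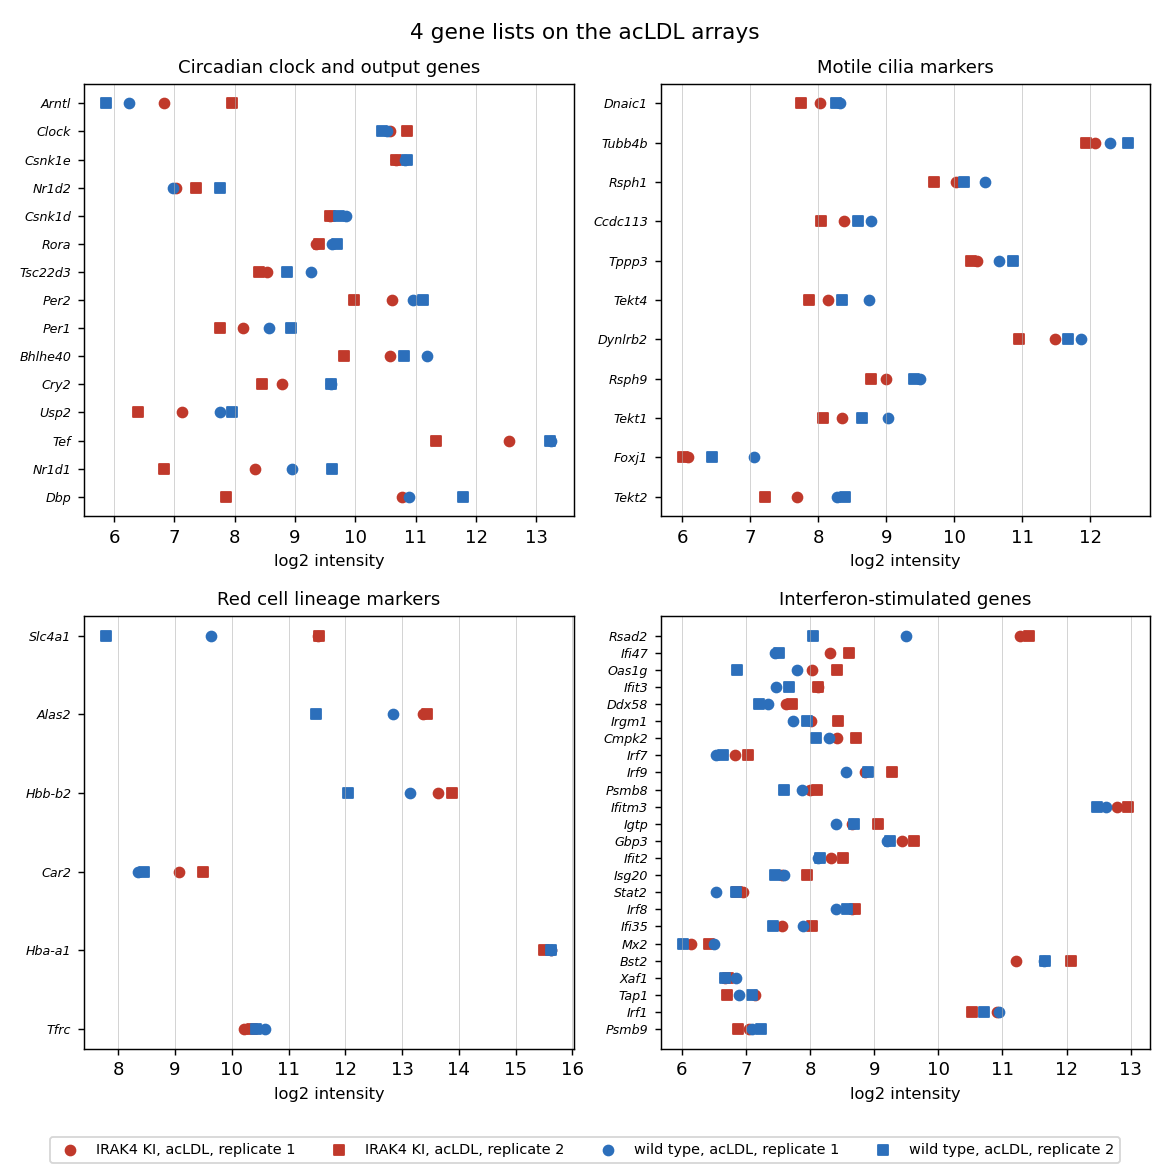
Log2 intensity (x axes) of every tested member of 4 gene lists on the 4 acLDL arrays, 1 point per array, with circles for replicate 1 and squares for replicate 2. Among the red cell genes Slc4a1 lies at 11.51 and 11.53 on the KI arrays against 9.63 and 7.79 on the wild type arrays. All 11 cilia genes have both KI arrays left of both wild type arrays, an order that 31.1% of all items show. Foxj1 among them lay below noise on both KI arrays. KI replicate 2 lies farthest left for Dbp, at 7.85.

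Col3a1, a fibrillar collagen of soft connective tissue, had 8.53 and 8.55 in KI and 7.18 and 7.16 in wild type. It was 2.58-fold higher in KI (log2 difference 1.36, SE 0.11, limma adjusted p = 0.00249), from the gene's brighter probe, while the other was above noise on 1 array and differed by 0.51. Ogn, the matrix proteoglycan osteoglycin, had 8.56 and 8.59 in KI and 7.72 and 7.71 in wild type (1.81-fold higher in KI, SE 0.11 on the log2 scale, limma adjusted p = 0.0291), but its second probe, above noise on every array, differed by only 0.10. For both tested probes the KI acLDL arrays lay above and the wild type acLDL arrays below the 4 untreated arrays. Of 34 collagen, collagen folding and matrix genes, 23 had a positive difference, these 2 were called and the median was 0.18, close to 0.20 in the untreated comparison. Of 16 smooth muscle, stromal and mesothelial markers, 13 had a positive difference with 0 called and a median of 0.10.

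Tm7sf3, a seven-transmembrane protein, was above noise only on the KI acLDL arrays, at 7.52 and 7.47, against 4.97 and 5.17 in wild type. It was at least 2.23-fold higher in KI (limma adjusted p = 0.000749), but its other 2 probes were above noise on none of the 8 arrays and differed by 0.18 and 0.07. The remaining named genes higher in KI belong to none of the lists above. Rec114, a protein of meiotic recombination, was 2.12-fold higher in KI (7.44 and 7.57 in KI, 6.50 and 6.35 in wild type, limma adjusted p = 0.0494). Slc39a8, which carries zinc and manganese into cells, was 1.65-fold higher (8.42 and 8.54 in KI, 7.76 and 7.75 in wild type, limma adjusted p = 0.0408). Its other probe was above noise on 0 of the 8 arrays and differed by -0.04. Ufsp2, the peptidase that releases the protein modifier UFM1, was 1.64-fold higher (8.81 and 8.83 in KI, 8.19 and 8.03 in wild type, limma adjusted p = 0.0494). Its other probe was above noise on 2 of the 8 arrays and differed by 0.64. Of the 8 higher probes without a gene name, 4 were measured in both groups, with differences of 0.78 to 1.11. The other 4 lay below noise on both wild type acLDL arrays and were at least 1.85-fold to at least 3.32-fold higher in KI. Among these, ILMN_2696696 had 8.10 and 8.03 in KI and lay below noise in wild type (at least 3.32-fold higher, limma adjusted p = 0.000321).

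Baiap2l1, an adaptor of the I-BAR family that links curved membranes to actin, gave the largest fall among the calls. It had 8.20 and 8.05 on the KI arrays and 10.22 and 10.26 on the wild type arrays, and was 4.34-fold lower in KI (log2 difference -2.12, SE 0.11, limma adjusted p = 0.000321). The untreated arrays read 8.28 and 8.33 in KI and 7.73 and 7.93 in wild type, so the wild type acLDL arrays stood apart from the 6 others and the order of the genotypes was the opposite without acLDL. Sgms1, which makes sphingomyelin from ceramide, had 10.23 and 9.77 in KI and 11.61 and 11.23 in wild type. It was 2.68-fold lower in KI (log2 difference -1.42, SE 0.18, limma adjusted p = 0.0291), and untreated it read 10.36 and 10.22 in KI and 10.96 and 10.97 in wild type. Of 20 sphingolipid genes 13 had a negative difference, Sgms1 was the one called, and the median was -0.14. Cers2, a ceramide synthase, and Kdsr, which acts early in ceramide synthesis, had differences of 0.69 and 0.62 (adjusted p = 0.0512 and 0.0538), named after their values were seen. Psmb1, a subunit of the 20S proteasome core, had 8.62 and 8.56 in KI and 9.79 and 10.43 in wild type (2.86-fold lower in KI, SE 0.20 on the log2 scale, limma adjusted p = 0.0315). The 27 proteasome genes had a median of 0.04 with 16 positive, and Psmd14, a deubiquitinase of the proteasome lid, had a difference of 1.09 (adjusted p = 0.0512).

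Gprc5a, a retinoic acid-induced receptor abundant in lung epithelium, had 8.62 and 8.36 in KI and 9.53 and 9.72 in wild type (2.19-fold lower in KI, SE 0.15 on the log2 scale, limma adjusted p = 0.0315). It was the one called among 9 alveolar type I markers, whose median was 0.14. Depp1, a gene switched on by FoxO factors, had 10.11 and 9.83 in KI and 10.95 and 10.78 in wild type (1.86-fold lower in KI, limma adjusted p = 0.0494). Purb, a single-stranded DNA and RNA binding repressor, had 8.49 and 8.08 in KI and 9.30 and 9.20 in wild type (1.95-fold lower in KI, limma adjusted p = 0.0494). On the untreated arrays Purb read 8.54 and 8.66 in KI and 9.12 and 9.11 in wild type. The other lower genes with a name were Nhlrc1, the ubiquitin ligase malin (1.86-fold), Sh3tc2, an adaptor of endosome recycling in Schwann cells (1.84-fold), Dcaf5, a substrate receptor of CUL4 ligases (1.78-fold), Lrrc36, a leucine-rich repeat protein (1.73-fold), and Ninl, a centrosome protein (1.63-fold). Their adjusted p lay between 0.0315 and 0.0494. The calls of these 5 and of Gprc5a, Depp1 and Purb were each lost in at least 12 of 21 alternative settings.

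**Figure D3:**
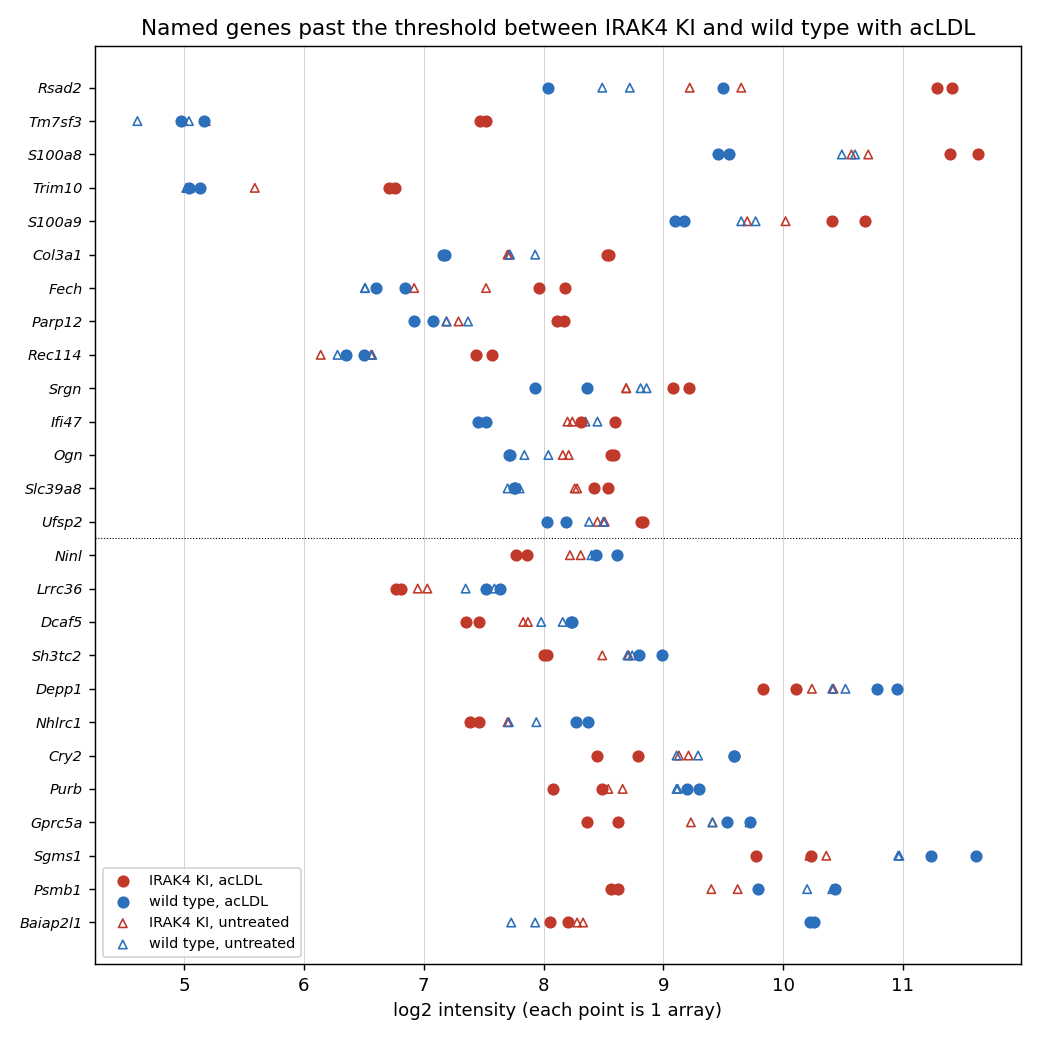
Log2 intensity (x axis) on each of the 8 arrays for the 26 named genes past the threshold, sorted by the difference between KI and wild type with acLDL, with the 14 higher genes above the dotted line. Filled circles are acLDL arrays and open triangles untreated ones, red for IRAK4 KI and blue for wild type. Baiap2l1 has its wild type acLDL circles, at 10.22 and 10.26, apart from the 6 other arrays.

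The clock gene Cry2, whose product represses CLOCK and BMAL1, had 8.79 and 8.45 in KI and 9.59 and 9.59 in wild type. It was 1.95-fold lower in KI (log2 difference -0.96, SE 0.14, limma adjusted p = 0.0408), and the untreated groups overlapped, at 9.21 and 9.13 in KI and 9.11 and 9.29 in wild type. Of 15 circadian clock and output genes tested, 13 had a negative difference, Cry2 was the one called, and the median was -0.75, against -0.03 over all items and 0.01 for the list untreated. Both KI arrays lay below both wild type arrays for 12 of the 15, against 31.1% of all items. The members that follow were named after their values were seen. The period genes Per1 and Per2, partners of the cryptochromes in repression, had differences of -0.80 and -0.75 (adjusted p = 0.104 and 0.149). Output regulators of the PAR bZIP and nuclear receptor families had larger differences, with Dbp at -2.03, Nr1d1 at -1.71 and Tef at -1.30 (adjusted p = 0.176, 0.118 and 0.0957). KI replicate 2 was the low array for these 3. Dbp had 10.77 and 7.85 in KI and 10.89 and 11.79 in wild type, and Nr1d1 had 8.34 and 6.82 in KI and 8.95 and 9.62 in wild type. Arntl, which encodes BMAL1, read the other way, with 6.82 and 7.95 in KI. It lay below noise on both wild type arrays, at 6.25 and 5.87, so only a bound can be given. It was at least 2.07-fold higher in KI (limma adjusted p = 0.0962). Arntl entered the test only through the KI arrays, where it is high, so it gives no support for an opposite change. Without KI replicate 2 the median of the list was -0.44, and the labels give no hour of collection, whose part was not tested.

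No motile cilia marker passed the threshold, though all tested members read lower in KI. For 11 of 11 both KI arrays lay below both wild type arrays, against 31.1% of all items, and the median was -0.54. Each had an unadjusted limma p under 0.05, where 1237 of all 9792 items were lower at that level. The 11 are markers of 1 cell type in bulk RNA, so they do not count as separate results. Of the 11, 10 were above noise on all 4 acLDL arrays. Foxj1, the transcription factor of motile cilia, lay below noise on both KI arrays, at 6.09 and 6.01, against 7.05 and 6.44 in wild type. It was at least 1.33-fold lower in KI (limma adjusted p = 0.118). Foxj1 passed the filter only through the wild type arrays, where it is high, so its order and p add no support. Rsph9, a radial spoke protein, had 8.99 and 8.77 in KI and 9.49 and 9.41 in wild type, and Tekt1, a tektin of the axoneme, 8.35 and 8.07 in KI and 9.03 and 8.65 in wild type. The summed level on the log2 scale was 13.49 and 13.23 in KI and 13.84 and 13.86 in wild type, and 6 of 18 list genes with a probe were above noise on none of the arrays. Untreated, 10 of the 11 also had a negative difference, with a median of -0.35. Airway club cell markers, from the same epithelium, had 11 of 13 negative and a median of -0.13. Only 2 of these 13 had KI below wild type without overlap, against 31.1% of all items, and 0 were called. Alveolar type II markers had 8 of 16 positive and a median of 0.04.

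Genes on the pathway of IRAK4 itself gave no call. Only 0.357% of all items were called, so the lack of a call in lists of this size says little about the pathway. Of 25 Toll-like and interleukin-1 receptor components, 12 had a positive and 13 a negative difference, with a median of 0.00 and a range of -0.42 to 0.45. Tlr4, the receptor of lipopolysaccharide, had 7.81 and 7.94 in KI and 7.91 and 7.85 in wild type, Myd88 had 7.50 and 7.55 in KI and 7.49 and 7.22 in wild type, and Irak2, a kinase that acts after IRAK4, had 8.87 and 9.19 in KI and 8.50 and 8.81 in wild type. Of these 3 receptors and signal carriers, Irak2 and Myd88 had KI above wild type without overlap, as had 24.3% of all items. None of the 3 passed the test (limma adjusted p = 0.195 for Irak2 and 0.532 for Myd88). Tollip, an inhibitor of the pathway, had 10.03 and 9.70 in KI and 10.35 and 10.21 in wild type (adjusted p = 0.138). The 23 NF-kB components and feedback genes had a median of -0.01, led by Tnfaip2 (difference 0.52, adjusted p = 0.0970) and Traf2 (0.47, adjusted p = 0.104). Of 23 cytokines, chemokines and mediators, 13 had a positive difference, 0 were called and the median was 0.18. Il1b, the cytokine interleukin-1 beta, had 7.98 and 8.19 in KI and 7.33 and 7.42 in wild type (difference 0.71, SE 0.15, adjusted p = 0.0753). The neutrophil chemokine Cxcl1 had 7.63 and 7.46 in KI and 8.03 and 8.06 in wild type (difference -0.50, SE 0.13, adjusted p = 0.104). Macrophage identity genes had 14 of 16 positive with a median of 0.23, a summed log2 level of 15.42 and 15.76 in KI and 15.44 and 15.22 in wild type, and 0 called. Tyrobp, an adaptor of myeloid receptors, had 7.95 and 8.29 in KI and 7.33 and 7.03 in wild type (difference 0.94, adjusted p = 0.0635).

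Lists on the handling of lipid held 1 called gene, Sgms1, where 0.357% of all items were called. Over 30 genes of scavenger receptors and lipid storage the median was 0.04, with the scavenger receptor Colec12 at 0.59 (adjusted p = 0.110). Of the oxysterol-responsive targets of LXR, 10 of 11 were positive, with a median of 0.11 and Scd1, a fatty acid desaturase, at 0.49 (adjusted p = 0.175). The median over 19 cholesterol synthesis genes was 0.02, and Insig1, which holds back the activation of SREBP, had 7.25 and 7.53 in KI and 6.56 and 6.88 in wild type (adjusted p = 0.0776). Fatty acid and triglyceride synthesis genes had 14 of 18 positive and a median of 0.14, led by Fasn, the fatty acid synthase, at 0.66 (adjusted p = 0.0965). Lysosomal genes had 20 of 32 positive and a median of 0.08.

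Among stress and growth lists no gene was called, which says little where only 0.357% of all items were. Hspa5, the endoplasmic reticulum chaperone BiP, had 7.82 and 8.15 in KI and 6.94 and 7.17 in wild type (difference 0.93, adjusted p = 0.0512). Ppp1r15a, which restarts translation after stress, had 8.49 and 8.02 in KI and 9.14 and 9.09 in wild type (difference -0.86, adjusted p = 0.0613). The median over 27 unfolded protein response genes was 0.01. Immediate early and cAMP response genes had 18 of 25 negative and a median of -0.14, with Fosl2, an AP-1 factor, at -0.69 (adjusted p = 0.0701). The 28 heat shock genes had a median of -0.04, against 0.28 untreated, and Hsph1 had 12.22 and 12.16 in KI and 12.96 and 12.58 in wild type (difference -0.58, adjusted p = 0.119). Mitochondrial respiratory chain genes had 33 of 43 positive with a median of 0.16, and cell cycle genes 17 of 23 with the same median. Medians of the NRF2, hypoxia, ribosomal and cytochrome P450 lists lay between -0.06 and 0.02. The 44 tested genes within 5 Mb of Irak4 had a median of -0.12 and 0 calls, and the first by p was Tuba1a, an alpha-tubulin (difference 0.92, adjusted p = 0.0512).

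**Figure D4:**
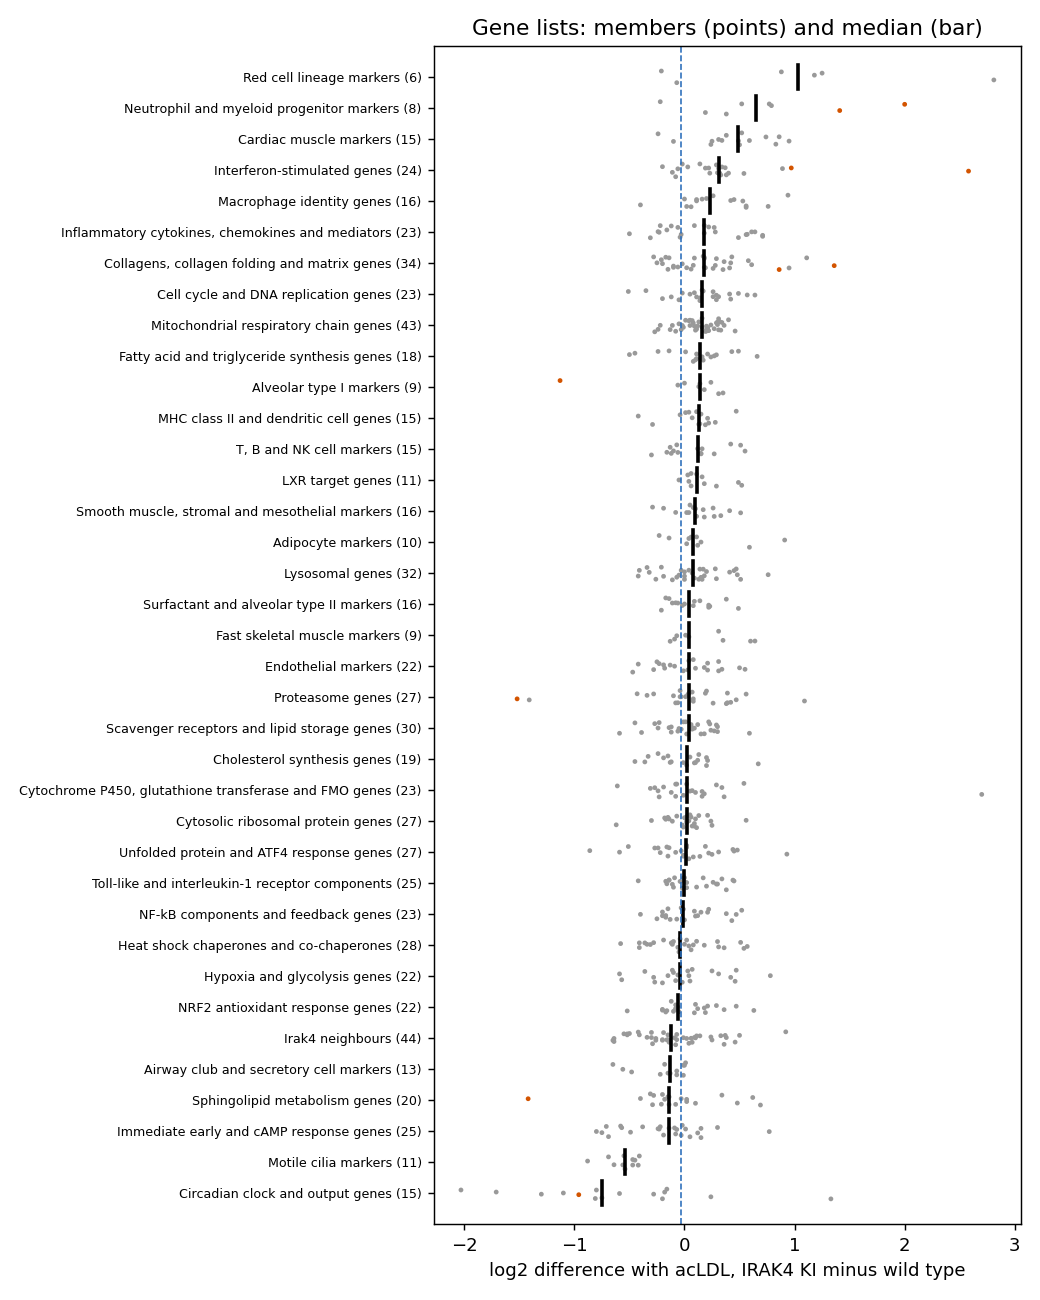
Log2 difference with acLDL, IRAK4 KI minus wild type (x axis), for the tested members (points, number in brackets) of 37 gene lists sorted by their median (black bar). Called members are orange and the dashed line is the median of all items, -0.03. The red cell list has the highest median, 1.03, and the circadian list the lowest, -0.75.

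The same genotype difference was then read from the 4 untreated arrays, which share no array with the acLDL comparison. None of the 35 items was called there, where 1 item of 9792 passed (0.0102%), 1700029J07Rik, with a difference of -1.88. That gene had 8.20 and 7.85 in KI and 8.30 and 8.57 in wild type with acLDL. Of the 35, 29 had the same sign untreated, against 64.6% of all items, and the untreated groups did not overlap in the same direction for 10 of the 22 higher and 8 of the 13 lower items. Over all items the untreated KI arrays lay above the wild type ones without overlap for 24.0% and below them for 25.8%. Sizes were smaller: the median untreated difference was 0.20 for the 22 higher items and -0.22 for the 13 lower ones. Slc39a8 had differences of 0.72 with acLDL and 0.52 untreated, and Psmb1 of -1.52 with acLDL and -0.80 untreated. The test of the difference between the 2 genotype differences called 5 items (0.0511%). These were Baiap2l1 (-2.59, SE 0.16, limma adjusted p = 0.00198), S100a8 (1.90, SE 0.17, limma adjusted p = 0.0130), Col3a1 (1.48, SE 0.15, limma adjusted p = 0.0206), Tm7sf3 (2.17, SE 0.23, limma adjusted p = 0.0206) and the unnamed ILMN_2696696 (1.94, limma adjusted p = 0.0130). The probes of Tm7sf3 and ILMN_2696696 were below noise in the 3 other groups, so their values are set against background and give no exact size. Both entered the test only through the KI acLDL arrays, where they are high, so their calls give no support for a dependence on acLDL. For the 30 items not called here such a dependence was not shown. The count of 5 was 1 without KI acLDL replicate 2, wild type acLDL replicate 2, untreated wild type replicate 1 or either untreated KI array, and 3 without KI acLDL replicate 1 or untreated wild type replicate 2. Against all 6 other arrays, the KI acLDL arrays were highest for 18 of the 22 higher items and lowest for 10 of the 13 lower ones. The wild type acLDL arrays were lowest for 12 and highest for 10 of the same items. The items were selected for a difference between these 2 groups, which favours such an order in advance. The same counts were not taken over all items, so they give no support for a dependence on acLDL.

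**Figure D5:**
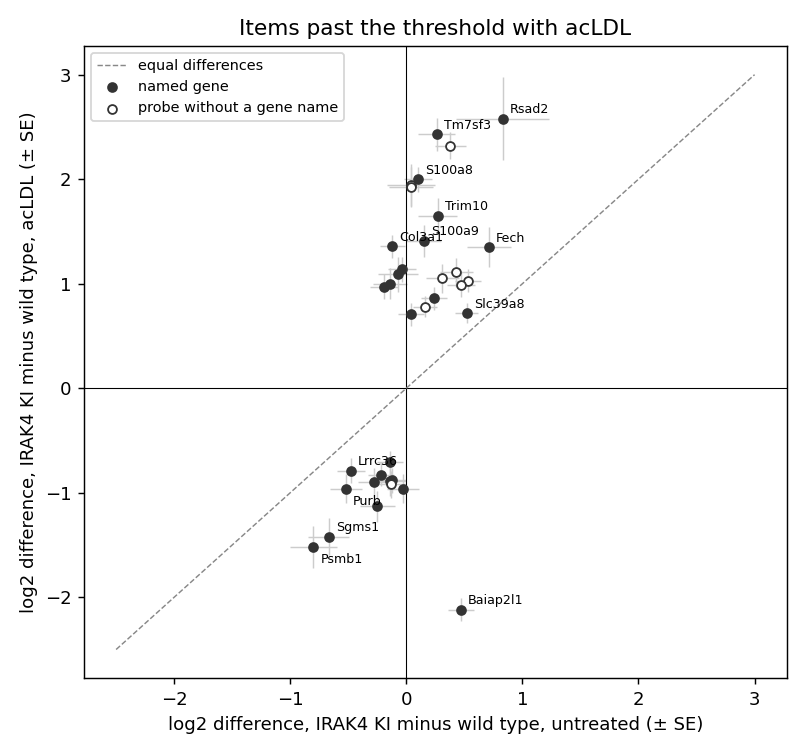
Log2 difference between IRAK4 KI and wild type with acLDL (y axis) against the same difference untreated (x axis) for the 35 items past the threshold with acLDL, with the SE of each as bars. The dashed line marks equal differences. Baiap2l1 lies at -2.12 with acLDL and 0.47 untreated, S100a8 at 2.00 and 0.10, and Slc39a8 is close to the line at 0.72 and 0.52.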

How the data were processed

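RNA of 8 samples was hybridised to Illumina mouse beadchips, 1 array each. The authors deposited linear intensity values. BeadStudio is named in the submitters' processing notes, with a version not given in the sources used here. On an array about 29.2% of the intensities are below 0 and the median is 23.7 or 23.8. The sorted columns differ by at most 1.4 units. From this it was inferred that background had been subtracted and the arrays quantile normalized. Another table holds 16 per-sample columns with names that fit no sample, and none was used.

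The normexp correction of limma (offset 16) was applied before log2. Noise was 12.2 units (root mean square of values below 0), and a probe counted as above noise over 3 times that, 36.7. A gene with several probes was read from the brightest on average over the 4 acLDL arrays. Of 24613 probes, 20984 have 1 symbol in the supplied platform annotation, 1 has several and 3628 have none. Of their gene numbers 20968 matched the supplied gene table, and 0 symbols changed. That annotation is of another Illumina platform than the one in the labels, joined by probe identifier, so a gene name holds only if an identifier means the same probe on the 2 platforms. A single limma model (version 3.58.1 in R 4.3.3) of all 8 arrays held 4 group means and 3 contrasts. It left 4 residual degrees of freedom, and p-values were adjusted over the items (Benjamini-Hochberg, threshold 0.05). Because of the offset, log2 folds of dim probes are compressed. A probe below noise on both arrays of a group gives only a bound, in which each dim array counts as the higher of its own value and the lowest signal above noise. The steps were tested on simulated data.

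The comparison, the 38 gene lists and the rule for named genes were chosen with earlier results of these data known. The rule takes up to 10 named genes higher and 10 lower by size among calls whose groups do not overlap, and from each list up to 4 called members, or else up to 2 with the smallest p. Genes outside this rule were picked with their values in view. Lists are described by counts and medians, with no test of a list. Alternatives were other background corrections, normalizations, filters, probe rules, variance models, array weights, a replicate block and each array left out. Plots were drawn with matplotlib 3.10.9.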

Additional observations from a re-analysis of the deposited data

Results flagged for a closer look

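The genotype difference with acLDL differed from the untreated one, by the interaction test over all 9792 items (limma, Benjamini-Hochberg), for 5 items. Baiap2l1 gave -2.59 (adjusted p = 0.00198), with KI below wild type on the acLDL arrays and above it on the untreated ones. Tm7sf3 gave 2.17 (adjusted p = 0.0206), from 1 of its 3 probes. S100a8 gave 1.90 (adjusted p = 0.0130), Col3a1 gave 1.48 (adjusted p = 0.0206), and ILMN_2696696, a probe without a gene name, gave 1.94 (adjusted p = 0.0130). Tm7sf3 and ILMN_2696696 were below noise in every group but KI with acLDL, so these 2 values are set against background and give no exact size. Both entered the test only through the KI acLDL arrays, where they are high, so these 2 calls give no support for a dependence on acLDL.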

How the results depend on the processing

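The count of 35 (22 higher, 13 lower) moved by over 1.5 times in most settings. It was 102 (60 and 42) with an offset of 50, 7 (6 and 1) without background correction, 54 (36 and 18) with median centring, 55 (38 and 17) with cyclic loess, 10 (9 and 1) without a filter and 60 (33 and 27) among items above noise on all 4 acLDL arrays. It was 22 (16 and 6) with the filter on 2 of all 8 arrays, 54 (36 and 18) with every probe on its own, 110 (64 and 46) with a variance trend, 23 (17 and 6) with array weights and 7 (6 and 1) when only the acLDL groups were fitted. With the filter at 2 times the noise it was 27. Leaving out 1 array gave 6 to 21 for this count, 0 to 3 for the untreated count of 1 and 1 to 5 for the interaction count of 5. The untreated count was 0 with no background correction, 0 with no filter and 2 with only the groups compared, while the interaction count was 2 and 3 in the first 2 of these settings. The labels do not say that a replicate number marks a shared source. The correlation of same-numbered deviations was 0.308 between the 2 acLDL groups and ran from -0.193 to 0.308 over 6 pairs of groups, with 3 of the 6 below 0. With the replicate block the counts were 15 (11 and 4) with acLDL, 0 untreated and 1 for the interaction. Without wild type acLDL replicate 1 7 differences, none of them called, turned from positive to negative. Over the arrays left out they ran from -0.72 to 2.01 for Mb, -0.01 to 0.21 for Eif2s3y, -0.25 to 1.90 for Actc1, -0.51 to 2.34 for Car3, -0.44 to 1.63 for Adipoq, -0.13 to 1.34 for Eno3 and -0.37 to 2.09 for Myl7. The cause was not tested for any of these shifts. None of the 35 calls turned its sign in an alternative.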

Other observations

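Several genes, all chosen after their values were seen, differed between the acLDL arrays by as much as the called ones without passing the test. Ube2l6, which conjugates the interferon-induced modifier ISG15, had log2 intensities of 9.63 and 9.86 in KI and 8.78 and 7.91 in wild type (difference 1.40, limma adjusted p = 0.0617). Slc25a37, which brings iron into mitochondria for heme synthesis, had 10.84 and 10.65 in KI and 9.89 and 9.18 in wild type (difference 1.21, limma adjusted p = 0.0775). For both, wild type replicate 2 was the lowest of the 4 arrays, as for Rsad2 and Slc4a1. Ifi27l2a, an interferon-induced gene, had 10.17 and 10.58 in KI and 8.40 and 9.78 in wild type (difference 1.28, limma adjusted p = 0.145), where wild type replicate 1 was the lowest. The probe ILMN_2619200, which has no gene name here, gave the largest difference of all items, with 9.78 and 10.01 in KI and 6.92 and 6.18 in wild type (3.35, limma adjusted p = 0.0512).

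For some other large differences the 2 arrays disagreed within each group. Cyp26b1, which breaks down retinoic acid, had 13.01 and 9.57 in KI and 9.82 and 7.36 in wild type (difference 2.70, limma adjusted p = 0.218). Chil4, a chitinase-like protein, had 11.41 and 8.84 in KI and 9.98 and 5.65 in wild type (difference 2.31, limma adjusted p = 0.343). In both genes replicate 2 was the lower array of each group. The airway secretory protein gene Bpifb1 showed the same order, with 11.37 and 7.87 in KI and 12.58 and 9.08 in wild type (difference -1.21, limma adjusted p = 0.587).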
